A study of Oryza sativa Japonica Group with 59 samples.

Results

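LOC_Os09g01000 and LOC_Os09g00999 are a pair of annotated loci with the lowest identifier numbers on rice chromosome 9. They were chosen by identifier, 2 of the 55986 features of the RNA-seq files, because they took the largest shares of the counted reads in many libraries. Their level is therefore a description and was not tested. The ratio of one locus to the other and the differences between groups were not criteria of the choice. The differences come from the same counts, however, so their tests are not independent of it. A locus can still enter such a choice through 1 group in which it is high. The features just inside and just outside of it by mean share over the 10 groups were LOC_Os09g00999 at 0.899% and LOC_Os03g46770 at 0.465%, while LOC_Os09g01000 was at 3.76%.

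In japonica rice, the end of the short arm of chromosome 9 is known to carry an array of ribosomal RNA genes, the nucleolus organizer. Such arrays hold many near-identical copies, and in plants some copies are silenced by DNA methylation and histone modification while others are transcribed. Library protocols that select polyadenylated RNA are meant to leave ribosomal RNA out. The RefSeq gene table of another rice assembly (ASM3414082v1) lists 1756 rRNA genes, of which 1533 are on chromosome 9, and all 1533 precede the first other gene of that chromosome. None of the 55986 feature identifiers of the RNA-seq files matched a row of that table, so it could not be searched for the 2 loci. No source used here says what the loci encode. Whether their reads came from rRNA copies was therefore not tested. If the loci share sequence with other copies or with each other, the counting could have split or discarded reads, so the counts are uncertain in that respect. The lengths implied by the files are 2927 bases for LOC_Os09g01000 and 2585 bases for LOC_Os09g00999.

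The study asked how CHG methyltransferases act in rice sex cells, and 27 of its 59 samples are RNA-seq libraries, each made from a pool of isolated cells of the variety Zhonghua11 (ZH11). The WT groups are meiocyte (n = 3), unicellular microspore (n = 3), sperm (2 files), egg (n = 3) and zygote (n = 3), and the methods describe WT plants as regenerated from tissue culture. The mutant groups are *cmt3b* meiocyte (n = 3), *cmt3b* sperm (n = 3), *cmt3b* egg (n = 2), *cmt3b* zygote (n = 3) and *cmt3a* egg (n = 2), from Cas9-free plants with a CRISPR/Cas9 knockout of the chromomethylase gene *CMT3b* or *CMT3a*. Zygotes were collected 6 to 8 h after fertilization. The methods give unlike numbers of cells per RNA-seq library, most for sperm, fewer for meiocyte and fewest for egg and zygote, with none given for microspore. In comparisons between these cell types, the number of cells cannot be told apart from the cell type. Each mutant has independent lines, but the line behind each library is not given in the sources used here, and neither is the plant. P-values thus measure the spread between these libraries, which may be technical.

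Total counts were between 9240046 and 25610860 per library, with a median of 16151914. Over all features, the 2 files of WT sperm differed by less than counting noise (chi-square per degree of freedom 0.240, against 1.37 to 6.73 in the other replicate pairs). They were therefore counted as 1 sample and have no test. For the pair itself, the files differed by more than counting error. The 95% intervals of the share were 3.37 to 3.39% and 3.19 to 3.21% for LOC_Os09g01000. For LOC_Os09g00999 they were 0.504 to 0.510% and 0.487 to 0.494%. *cmt3b* sperm 1 differed most from its replicates (6.38 and 6.73), followed by the *cmt3a* egg pair (5.31). As a check of the labels, *CMT3b* (LOC_Os03g12570) had 0 and 1 counts in *cmt3b* egg against 89 to 151 in WT egg, 109 to 144 in *cmt3b* meiocyte against 359 to 587, 43 to 58 in *cmt3b* zygote against 118 to 214, and 52 to 100 in *cmt3b* sperm against 501 and 539. *CMT3a* (LOC_Os10g01570) had 103 and 133 counts in *cmt3a* egg against 212 to 362 in WT egg. The lower values were not limited to the gene a label names. *CMT3b* had 8 and 19 counts in *cmt3a* egg (mean TPM 0.152 against 1.42 in WT egg), a larger fall than that of *CMT3a* there (4.66 against 12.8). *CMT3a* had a mean TPM of 10.4 in *cmt3b* meiocyte against 28.5 in WT meiocyte. In *cmt3b* egg, *CMT3a* had a mean TPM of 18.8, above WT egg. *CMT3a* thus told the mutants apart in egg, the cell type in which both have RNA-seq libraries. A low *CMT3b* did not, as it was below WT egg in both. An edited gene can still be transcribed, so a remaining count does not contradict a label. No cell type markers are annotated in the sources used here, so the cell types were not checked beyond this.

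In WT cells, the share of counts of LOC_Os09g01000 was lowest in zygote and meiocyte and highest in microspore and sperm. It was 0.501, 0.513 and 0.496% of all counts in the zygote libraries and 0.634, 0.651 and 0.600% in meiocyte. WT egg had 1.54, 1.64 and 1.51%. The sperm files had 3.38 and 3.20%, and microspore had 4.12, 3.58 and 3.59%. The libraries of different WT cell types did not overlap. Such separation was common. On counts scaled as for the tests below, 40.0% of all features were lower with no overlap in WT zygote against WT egg. In WT microspore against WT meiocyte, 43.9% were higher with no overlap. The share was not computed for the other pairs of WT cell types. The study's methods and the labels name different amplification kits without saying which group had which, and the part of the kit in the differences of share and ratio between groups was not tested. These are shares of bulk RNA: a larger amount of the locus and a smaller amount of all other RNA cannot be told apart, and neither can fewer cells of a type and less RNA per cell.

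In the mutants, the share of LOC_Os09g01000 was above the WT share in every cell type except *cmt3b* egg. The *cmt3a* egg libraries had the largest shares of all, 13.2 and 14.8%. *cmt3b* sperm had 6.11, 5.89 and 5.65%, and *cmt3b* meiocyte had 4.38, 4.19 and 4.35%. *cmt3b* zygote had 2.57, 2.59 and 2.32%. In *cmt3b* egg the shares were 1.22 and 1.19%, below all 3 WT egg libraries. Ordered by group mean, LOC_Os09g01000 ran from *cmt3a* egg (14.0%) through *cmt3b* sperm, *cmt3b* meiocyte, WT microspore, WT sperm, *cmt3b* zygote, WT egg, *cmt3b* egg and WT meiocyte to WT zygote (0.503%), and no neighbouring groups in that order overlapped. How many other features separate the groups in this way was not counted. The highest group mean was 27.8 times the lowest.

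LOC_Os09g00999 had a smaller share than LOC_Os09g01000 in all 27 libraries. Its share was 0.125, 0.128 and 0.126% in WT zygote, 0.331, 0.320 and 0.304% in WT meiocyte, and 0.371, 0.374 and 0.372% in WT egg. The WT sperm files had 0.507 and 0.491%, and WT microspore had 2.18, 2.07 and 2.09%, the highest group mean of all 10 (2.11%). Microspore thus stood above *cmt3a* egg for this locus, which was not so for LOC_Os09g01000.

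Each mutant group had a larger share of LOC_Os09g00999 than WT of the same cell type, egg included. *cmt3a* egg had 1.76 and 2.02%. *cmt3b* sperm had 1.53, 1.38 and 1.42%, and *cmt3b* meiocyte had 0.994, 1.06 and 1.05%. The *cmt3b* egg libraries had 0.682 and 0.679%, and *cmt3b* zygote had 0.549, 0.503 and 0.497%. In the order of group means, the only neighbours that overlapped were *cmt3b* zygote (0.517%) and WT sperm (0.499%). For this order too, the number of other features that separate the groups so was not counted. The highest mean was 16.7 times the lowest.

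**Figure D1:**
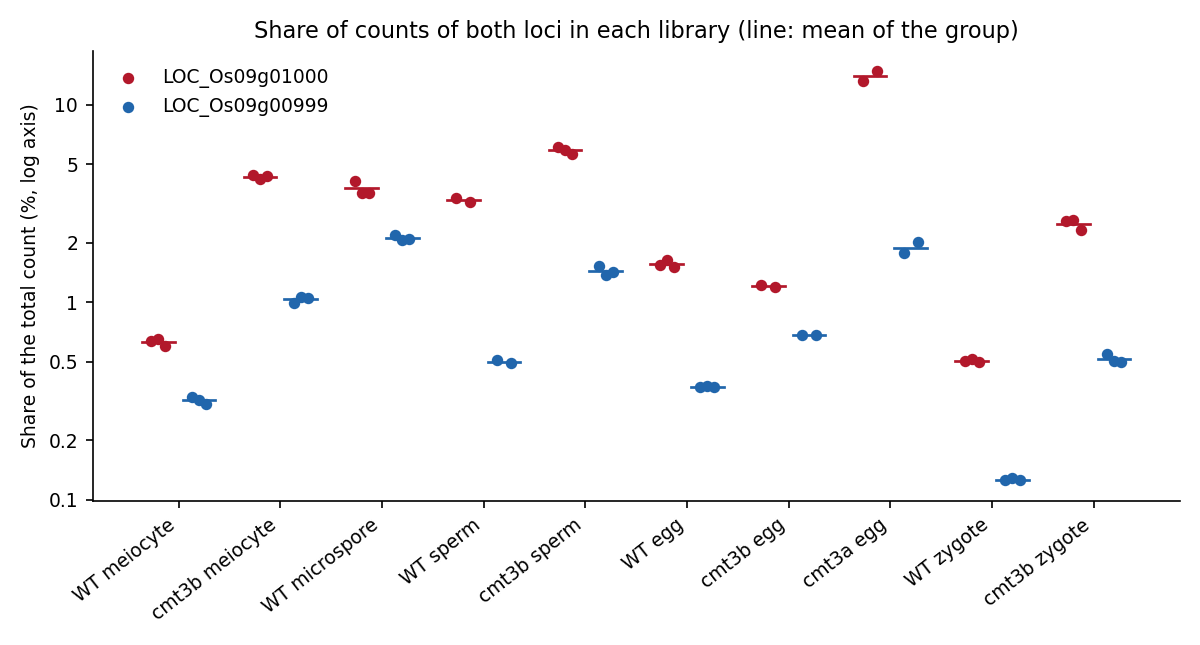
Share of the total count (%, logarithmic axis) of LOC_Os09g01000 (red) and LOC_Os09g00999 (blue) in each of the 27 libraries, by group. Points are libraries and lines are group means, and the red points lie between 0.496 and 14.8% with *cmt3a* egg highest, while the blue points lie between 0.125 and 2.18% with WT microspore highest.

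Both loci together took 0.622 to 16.8% of the counts, with a median of 3.12%. Counting error was small at this depth. The widest Wilson 95% interval reached 1.47% of its share to each side, whereas the coefficient of variation between replicates reached 8.22% for LOC_Os09g01000 and 9.40% for LOC_Os09g00999. Reads amplified by PCR are not independent molecules, so the intervals cover counting error only.

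By count, LOC_Os09g01000 was the largest feature in 19 of the 27 libraries. The exceptions were the WT meiocyte libraries, where LOC_Os07g33997 led (group mean 0.774%), the WT zygote libraries, where LOC_Os03g46770 led and LOC_Os09g01000 took place 4, and microspore 2 and 3, where LOC_Os11g37280 led with 4.03 and 4.35%. LOC_Os09g00999 was the next largest in 8 libraries, all of *cmt3b* meiocyte, *cmt3b* sperm and *cmt3a* egg. It was among the 8 largest in 24 libraries and took place 58 or 59 in the 3 WT zygote libraries. Only 3 features had a mean share over 0.1% in every group, the pair and LOC_Os02g06640.

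The other features with a high mean share were below 0.1% in at least 2 groups. LOC_Os11g37280 averaged 0.399% over the groups, with 3.98% in microspore and over 0.1% in that group alone. LOC_Os03g46770 was highest in *cmt3b* egg (0.983%) and at 0.00802% in WT sperm. LOC_Os07g33997, LOC_Os11g14220 and LOC_Os11g47760 averaged 0.353, 0.265 and 0.219%. Of the counts in the 20 largest features of a group, the pair held 9.17% in WT zygote and 13.8% in WT meiocyte, 37.6 and 48.6% in the *cmt3b* forms of these cells, and 74.7% in *cmt3a* egg. Per length, LOC_Os09g01000 led less often, with the highest TPM in 11 libraries, and in WT zygote its TPM took place 35 or 36.

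**Figure D2:**
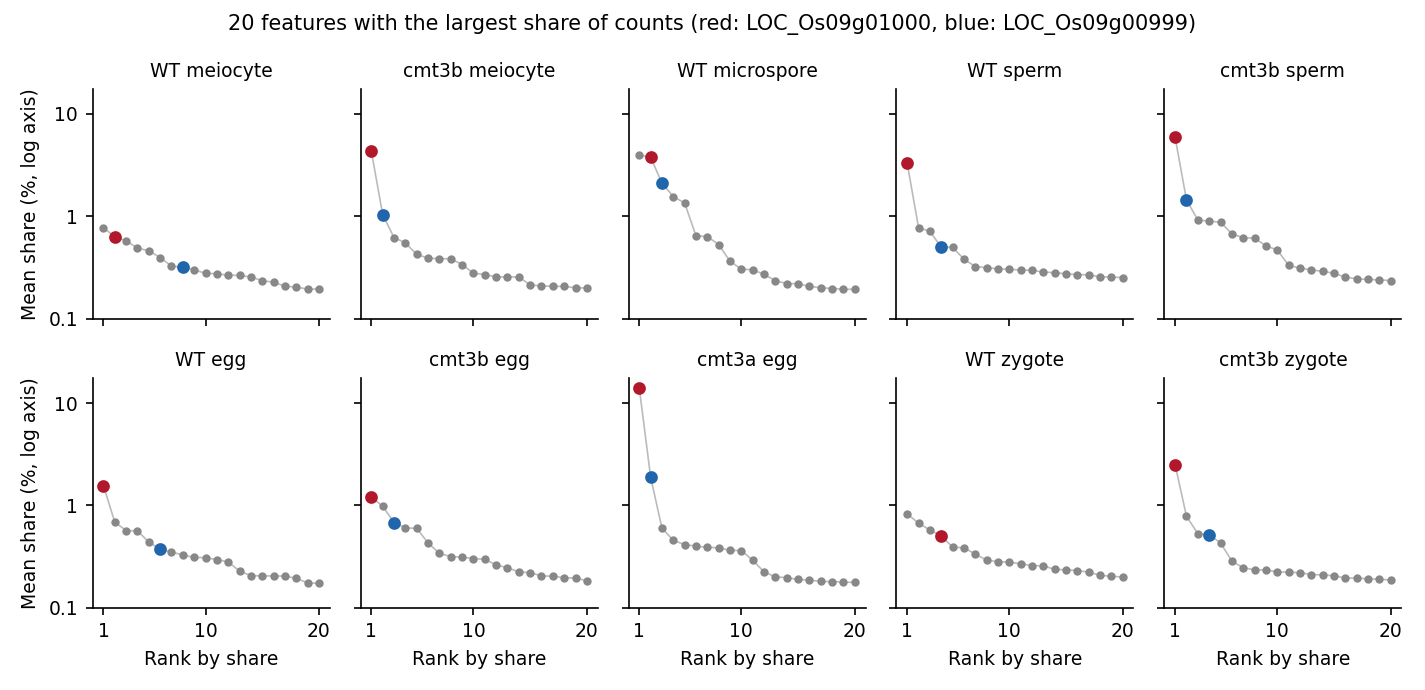
Mean share of counts (%, logarithmic axis) of the 20 largest features of each group against their rank, with LOC_Os09g01000 in red, LOC_Os09g00999 in blue and all others in grey. In *cmt3a* egg the pair stands at 14.0 and 1.89% above all other features, in WT meiocyte and WT zygote LOC_Os09g01000 lies among the others, and LOC_Os09g00999 is not among the 20 largest in WT zygote.

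The number of counts of LOC_Os09g01000 for each count of LOC_Os09g00999 was not the same in all cells. It was 1.91, 2.03 and 1.98 in WT meiocyte and 1.89, 1.73 and 1.71 in WT microspore. WT egg had ratios of 4.14, 4.37 and 4.07, and WT zygote had 4.00, 4.01 and 3.95. The WT sperm files had 6.67 and 6.52. Among WT cells, meiocyte and microspore thus had the lowest ratios and sperm the highest. The coefficient of variation between replicates was at most 5.65% in any group.

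In *cmt3b* cells the ratio was 4.41, 3.95 and 4.14 in meiocyte, 3.99, 4.28 and 3.97 in sperm, and 4.68, 5.15 and 4.68 in zygote. *cmt3b* egg had 1.79 and 1.75, the lowest group mean of all (1.77). *cmt3a* egg had 7.50 and 7.33, the highest (7.41), which is 4.18 times the lowest. Egg cells of the 3 genotypes thus covered the whole range of the ratio. Ordered by mean, WT egg, *cmt3b* meiocyte, *cmt3b* sperm and WT zygote overlapped from one to the next, as did WT microspore and *cmt3b* egg, and the other neighbours did not. Divided by the lengths of the loci, the ratio was between 1.51 and 6.62.

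**Figure D3:**
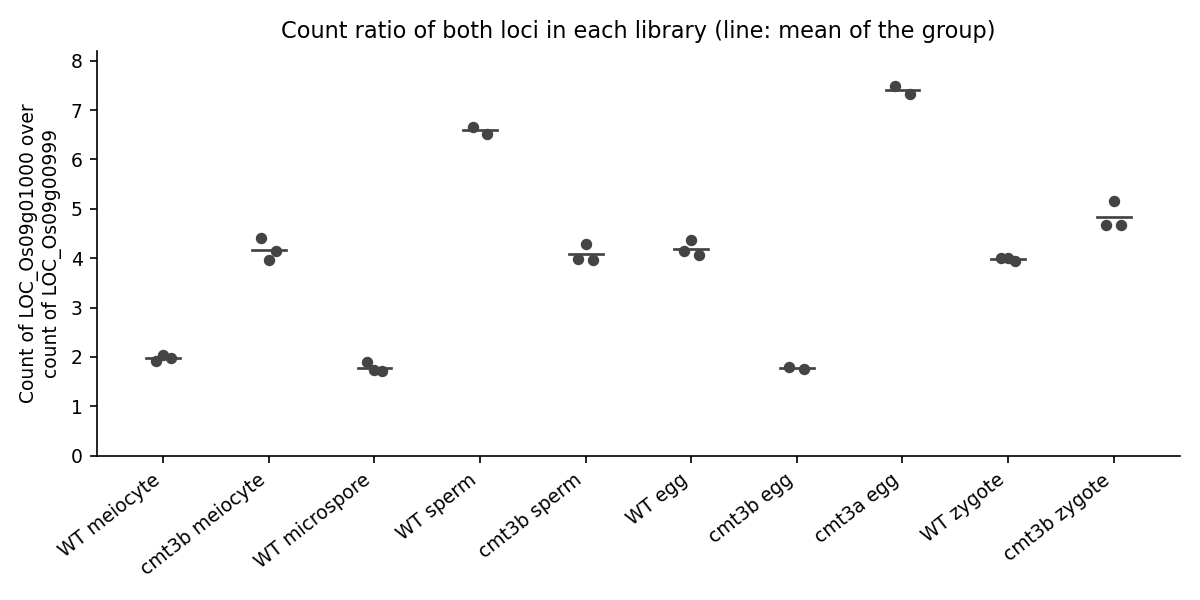
Counts of LOC_Os09g01000 per count of LOC_Os09g00999 in each library, by group, on a linear axis from 0, with points for libraries and lines for group means. Group means lie in 3 ranges, 1.77 to 1.97 in WT meiocyte, WT microspore and *cmt3b* egg, 3.99 to 4.84 in 5 groups, and 6.59 and 7.41 in WT sperm and *cmt3a* egg. Some groups within a range do not overlap, such as *cmt3b* zygote and WT egg.

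The ratio was compared in 7 pairs of groups with a two-sided exact permutation test of its log2 value. The groups did not overlap in 6 of the 7. Groups this small often separate. In *cmt3b* against WT egg, the libraries did not overlap for 41.1% of single features higher and 41.2% lower. How often the ratio of other pairs of features separates was not counted, so the 6 are not read as a trait of the pair. The ratio was 2.11 times higher in *cmt3b* than in WT meiocyte and 1.21 times higher in *cmt3b* than in WT zygote (exact p = 0.1 in both). In *cmt3b* egg it was 2.36 times lower than in WT egg, and in *cmt3a* egg 1.77 times higher (exact p = 0.2 in both). WT zygote had 0.951 times the ratio of WT egg and WT microspore had 0.900 times that of WT meiocyte (exact p = 0.1 in both). Only *cmt3b* sperm and *cmt3b* meiocyte overlapped (0.980 times, exact p = 0.7). These are the smallest p-values that 3 against 3 (0.1) and 2 against 3 (0.2) libraries allow, apart from the last, so no comparison could pass 0.05. Adjusted over the 7 comparisons, they were 0.175, 0.233 and 0.7.

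Changes of both loci between groups were tested with edgeR's quasi-likelihood test on the counts of all features that passed a filter on low counts. Library sizes were scaled by TMM, a factor that sets the bulk of features equal, and p-values were adjusted by Benjamini and Hochberg's method. Called features are those that passed an adjusted p of 0.01 and a change of 2-fold. Shares divide by all counts, the pair included, so a fold of shares and an edgeR fold can differ.

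In *cmt3b* meiocyte, both loci were called higher than in WT meiocyte, LOC_Os09g01000 more so. LOC_Os09g01000 rose by 2.96 on the log2 scale (SE 0.06, 7.80-fold, edgeR adjusted p = 2.58e-25) and LOC_Os09g00999 by 1.89 (SE 0.05, 3.70-fold, edgeR adjusted p = 2.15e-22). Of all 23192 features tested, 10.7% were called higher, and for 34.5% every mutant library lay above every WT library, as it did for both loci. Only 241 features rose more than LOC_Os09g01000, and 839 rose more than LOC_Os09g00999.

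In *cmt3b* egg the pair parted. LOC_Os09g00999 was called higher than in WT egg, with a log2 fold change of 1.10 (SE 0.03, 2.14-fold, edgeR adjusted p = 6.35e-25). LOC_Os09g01000 had a log2 fold change of -0.14 (SE 0.03, edgeR adjusted p = 0.000395), far from the limit of 2-fold, though the libraries did not overlap. Of 21466 features tested, 14.3% were called higher and 8.43% lower, and the libraries did not overlap for 41.1% higher and 41.2% lower. Scaled by total count instead of TMM, LOC_Os09g00999 had a log2 fold change of 0.87 and was no longer called.

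*cmt3a* egg showed the largest rise of LOC_Os09g01000. It rose by 3.50 on the log2 scale over WT egg (SE 0.06, 11.3-fold, edgeR adjusted p = 8.57e-18), and LOC_Os09g00999 rose by 2.68 (SE 0.06, 6.42-fold, edgeR adjusted p = 6.75e-17). In this comparison 19.6% of 22744 features were called higher, and 44.3% were higher with no overlap. With so wide a spread over all features, 1375 rose more than LOC_Os09g01000 and 1864 more than LOC_Os09g00999. This comparison and that of *cmt3b* egg share the WT egg libraries.

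In *cmt3b* zygote both loci were again called higher than in WT. LOC_Os09g01000 rose by 2.34 on the log2 scale (SE 0.05, 5.06-fold, edgeR adjusted p = 2.00e-21) and LOC_Os09g00999 by 2.06 (SE 0.05, 4.17-fold, edgeR adjusted p = 5.22e-21). Of 20638 features, 8.67% were called higher and 37.0% were higher with no overlap. From WT egg to WT zygote, both loci were called lower by nearly the same amount. LOC_Os09g01000 fell by 1.44 on the log2 scale (SE 0.03, edgeR adjusted p = 3.02e-29) and LOC_Os09g00999 by 1.36 (SE 0.03, edgeR adjusted p = 3.52e-30), where 9.64% of 21265 features were called lower and 40.0% were lower with no overlap.

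In the male lineage, WT microspore was higher than WT meiocyte by 2.91 on the log2 scale for LOC_Os09g01000 (SE 0.05, 7.50-fold, edgeR adjusted p = 5.13e-28) and by 3.06 for LOC_Os09g00999 (SE 0.05, 8.32-fold, edgeR adjusted p = 5.80e-30). Both were called, and so were 29.7% of all 23884 features in this direction, while 43.9% were higher with no overlap. The microspore libraries are numbered apart from all other RNA-seq libraries of the series. Whether they were also made apart is not given, and such a difference could not be told apart from the cell type. From *cmt3b* meiocyte to *cmt3b* sperm the log2 fold changes were 0.54 (SE 0.06, edgeR adjusted p = 1.00e-08) for LOC_Os09g01000 and 0.56 (SE 0.06, edgeR adjusted p = 4.03e-09) for LOC_Os09g00999, under the limit of 2-fold. There 32.5% of 24844 features were called higher, 40.7% were higher with no overlap, and the median log2 fold change of all features was -0.65. Here 9277 features rose more than LOC_Os09g01000 and 9188 more than LOC_Os09g00999.

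WT sperm had no usable replicates, so *cmt3b* sperm was set beside it without a test. The mean share of LOC_Os09g01000 was 5.88% in *cmt3b* sperm and 3.29% in WT sperm, 1.79 times higher in the mutant. For LOC_Os09g00999 the means were 1.44 and 0.499%, 2.89 times higher. The ratio of the pair was 4.08 ± 0.172 (SD, n = 3) in the mutant and 6.59 in WT.

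**Figure D4:**
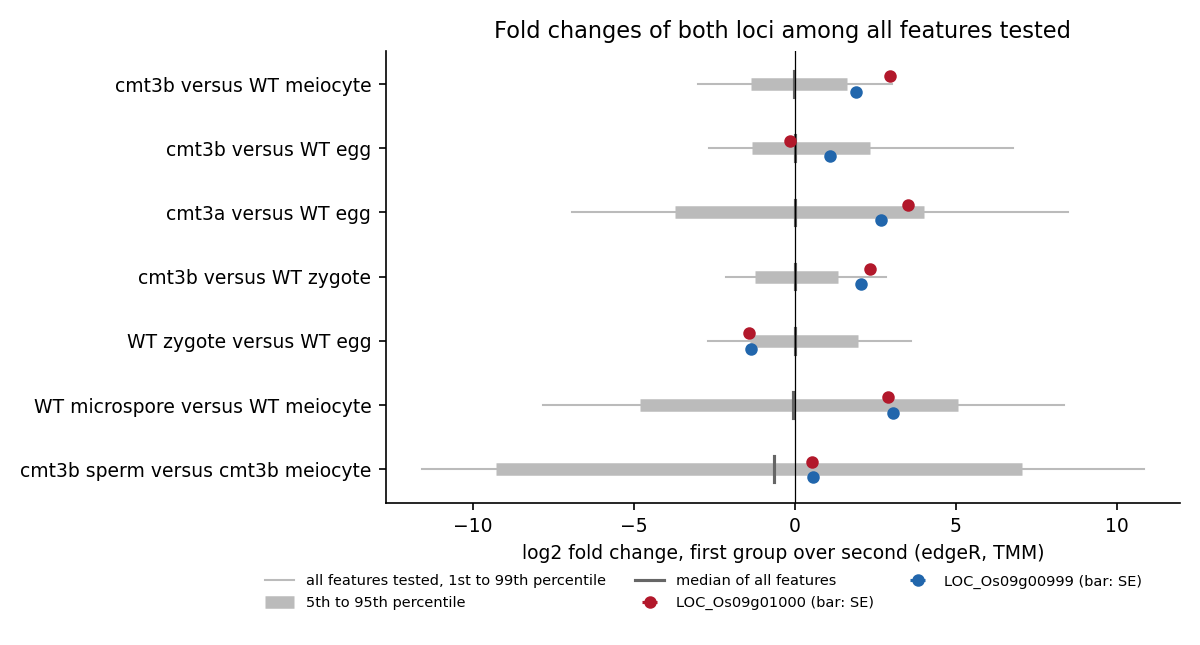
Log2 fold change (edgeR, TMM) of LOC_Os09g01000 (red) and LOC_Os09g00999 (blue) in the 7 tested comparisons, first group over the second, with bars for SE that are mostly smaller than the points. Grey boxes and lines give the 5th to 95th and the 1st to 99th percentile of all features tested, and both loci lie beyond the 95th percentile only for *cmt3b* against WT in meiocyte and zygote.

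An interaction term, in 1 edgeR fit of all replicated groups, tested whether the effect of *cmt3b* on the pair was unequal in meiocyte, egg and zygote. The effect on LOC_Os09g01000 was larger in meiocyte than in zygote, by 0.65 on the log2 scale, and larger in zygote than in egg, by 2.54. The first of these differences is under the 2-fold limit used for calls. For LOC_Os09g00999, meiocyte and zygote differed by 0.15 (SE 0.08, edgeR adjusted p = 0.122), which did not pass. Its effect in egg was below that in zygote by 1.02, just over the limit, and below that in meiocyte by 0.87, under the limit. Of 29846 features, the difference passed 0.01 and 2-fold, higher and lower, for 11.3 and 11.1% (egg against meiocyte), 8.90 and 10.6% (zygote against meiocyte) and 7.33 and 10.3% (zygote against egg). On the adjusted p alone the shares were 19.9 and 22.5%, 19.7 and 21.7%, and 21.8 and 18.0%.

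Because TPM values sum to 1000000 in every library, the TPM of the pair lowers that of every other feature by 1 factor per library. Both loci together had a mean TPM of 2801 in WT zygote, 4112 in WT meiocyte, 8397 in *cmt3b* egg and 9781 in WT egg. The means were 13706 in *cmt3b* zygote, 21216 in WT sperm, 22550 in *cmt3b* meiocyte, 29699 in microspore and 35417 in *cmt3b* sperm. *cmt3a* egg had a mean of 79066, between 74424 and 83708.

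Leaving both loci out raised the TPM of every other feature by 0.279 to 9.14%, depending on the library. In *cmt3a* egg the rise was 8.04 and 9.14%, against 0.978, 1.02 and 0.965% in WT egg and 0.856 and 0.838% in *cmt3b* egg. It was 3.80, 3.67 and 3.55% in *cmt3b* sperm, 3.29, 2.94 and 2.95% in microspore, 2.30, 2.28 and 2.34% in *cmt3b* meiocyte, and 2.22 and 2.11% in WT sperm. *cmt3b* zygote had 1.45, 1.42 and 1.29%. WT meiocyte and WT zygote moved least, by up to 0.425 and 0.284%. FPKM, which divides by the total count, rose more, by 0.626 to 20.2%, because the pair held a larger share of the counts than of the TPM sum in every group.

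**Figure D5:**
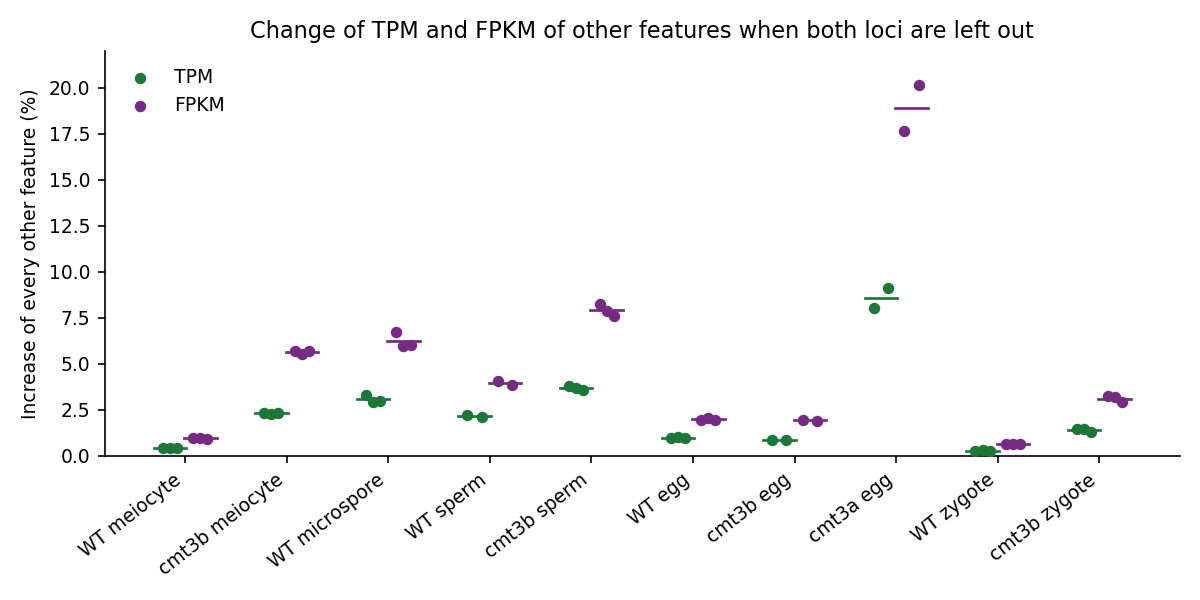
Rise of the TPM (green) and FPKM (purple) of every other feature, in percent, when both loci are left out of a library, with points for libraries and lines for group means. *cmt3a* egg stands apart with 8.04 and 9.14% for TPM, and all other libraries lie at or below 3.80%.

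The edited genes themselves serve as examples of the change in a single gene. *CMT3a* had a mean TPM of 4.66 ± 0.285 (SD, n = 2) in *cmt3a* egg, which became 5.06 ± 0.273 without the pair, while WT egg went from 12.8 to 12.9. *CMT3b* went from 1.45 to 1.48 in *cmt3b* meiocyte and from 7.13 to 7.16 in WT meiocyte. The order of the groups stayed as it was.

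Features near a fixed TPM threshold were affected in number. With a mean TPM over 10 as the limit, *cmt3a* egg had 11392 features with the pair and 11802 without, 410 more. The gain was 154 features in *cmt3b* sperm, 128 in microspore, 126 in *cmt3b* meiocyte, 82 in WT sperm, 71 in *cmt3b* zygote, 61 in WT egg, 37 in *cmt3b* egg, 21 in WT meiocyte and 15 in WT zygote. WT egg had 12072 such features with the pair and 12133 without, so the gap between *cmt3a* and WT egg became smaller.

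Differences of log2 (TPM + 1) between groups moved most for *cmt3a* against WT egg. There the median difference over 21112 features was -0.30 with the pair and -0.21 without. The sign changed for 823 features, 3.90%, and features over 2-fold higher went from 2349 to 2627, while those over 2-fold lower went from 4375 to 3846. In *cmt3b* against WT meiocyte the median moved by 0.02 and 343 features changed sign. In the other 5 comparisons it moved by -0.01 to 0.03.

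The edgeR calls of other features moved little under TMM, most for microspore and for *cmt3b* sperm against *cmt3b* meiocyte. Between *cmt3a* and WT egg, 8674 other features were called with the pair and 8673 without, and 8673 were shared. *cmt3b* meiocyte, *cmt3b* zygote and WT zygote against egg had 4316, 3455 and 4836 calls either way, all shared. Microspore against meiocyte had 14812 and 14824 calls with 14700 shared. Its calls went from 7086 to 6974 higher and from 7726 to 7850 lower. In *cmt3b* sperm against *cmt3b* meiocyte they went from 8074 to 8004 higher and from 11581 to 11650 lower.

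With library sizes scaled by total count alone, leaving out the pair moved more calls, above all in *cmt3a* egg, and also in microspore, *cmt3b* meiocyte and *cmt3b* zygote. In *cmt3a* against WT egg, 3440 other features were called higher and 5886 lower with the pair, and 4049 and 4720 without it, against 4460 and 4214 under TMM. In *cmt3b* meiocyte the counts went from 1899 and 2443 to 2089 and 2183. In microspore against meiocyte they went from 5909 and 9073 to 6166 and 8776, and in *cmt3b* zygote from 1695 and 1788 to 1804 and 1651. In *cmt3b* against WT egg, where the pair's summed share was nearly equal, they stayed at 2342 and 2911 with the pair and 2340 and 2916 without. Total-count scaling moved the median log2 fold change of all features to -0.33 (*cmt3a* egg), -0.24 (*cmt3b* egg), -0.20 (*cmt3b* meiocyte), -0.21 (WT zygote against egg) and -0.38 (microspore). With the pair left out as well, these medians were -0.11, -0.24, -0.14, -0.22 and -0.31, so that most of the shift remained in the other 4 of these comparisons than *cmt3a* egg. The part of all calls that were higher went from 51.4 to 36.9% in *cmt3a* egg, 62.9 to 44.6% in *cmt3b* egg, 57.5 to 43.8% in *cmt3b* meiocyte and 57.6 to 42.8% in WT zygote against egg, and with the pair left out it was 46.2, 44.5, 48.9 and 41.5%. Both loci kept their direction under each scaling in all 7 comparisons.

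The neighbours of the pair by identifier were nearly silent. The 10 features with the lowest identifier numbers on chromosome 9 comprise the pair and 8 others, and of the 216 values of these 8 in the 27 libraries, 102 were 0 and 172 were at 3 counts or fewer. The highest was 58 counts (LOC_Os09g01010 in *cmt3a* egg 2), and the highest TPM was 5.33. LOC_Os09g01030, LOC_Os09g01010 and LOC_Os09g01040 had mean TPM values of 0.481, 0.441 and 0.168, against 16489 for LOC_Os09g01000 and 4680 for LOC_Os09g00999. Summed, the 8 neighbours had 88 and 152 counts in *cmt3a* egg, 34 to 47 in microspore, 25 to 31 in *cmt3b* meiocyte and at most 25 in any other library. How far these neighbours lie from the pair was not analysed here.

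Over 26 points (the libraries, with WT sperm as 1), the log2 CPM values of the pair had a Pearson correlation of 0.882 and a Spearman correlation of 0.858. Over the 10 group means, Pearson's value was 0.863. The points share cell types and genotypes, so these are descriptions. Among 10562 features with at least 10 counts in every library, the other member of the pair ranked 8 for LOC_Os09g01000 and 9 for LOC_Os09g00999. The features most like LOC_Os09g01000 were LOC_Os08g15308 (0.896), LOC_Os10g21312 (0.895), LOC_Os05g22860 (0.894), LOC_Os10g21388 (0.892) and LOC_Os02g24614 (0.889). Those most like LOC_Os09g00999 were LOC_Os06g16380 (0.922), LOC_Os10g21396 (0.909), LOC_Os02g24614 (0.905), LOC_Os04g16732 (0.903) and LOC_Os08g15308 (0.900). Each of these 8 was highest in *cmt3a* egg and lowest in WT zygote or WT meiocyte, and each had a mean share of at most 0.00966%. They were picked for their correlation over these same libraries, so a shared pattern follows in part from the choice. LOC_Os09g00999 itself had its highest mean share in WT microspore (2.11%). The median correlation over all features was -0.11 for either locus.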

How the data were processed

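RNA-seq libraries were assigned to 10 groups from their labels, and 32 BS-seq samples were not analysed here. Per the methods, the authors made cDNA from isolated mRNA by full-length amplification, cleaned reads with fastp 0.20.1, aligned them with hisat2 (rice genome MSU7.0) and took counts per gene from featureCounts. The methods and the labels name different amplification kits, and which group had which is not given. Handling of multi-mapping reads, strand and duplicates is not given in the sources used here. The deposited files hold raw counts, and from these the authors computed FPKM (per gene length and total count) and TPM (scaled to a sum of 1000000). Recomputed FPKM and TPM differed by a relative 1.8e-14 at most. The gene lengths used for this were derived from the deposited counts and FPKM. The match therefore shows only that a constant length per gene serves all libraries. The files hold no coordinates, so neighbours were taken in the order of identifier numbers, not of start positions as planned.

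Counts were tested in R 4.3.3 with edgeR 4.0.16 (TMM, filterByExpr at a minimum count of 10, glmQLFTest), each pair of groups on its own, after a test on simulated data, with DESeq2 1.42.0 as an alternative. Other values were computed in Python 3.11.15 with scipy 1.17.1. CPM values used a prior count of 2, TPM differences a pseudocount of 1 and a filter on a mean TPM of 1. Total counts were 9240046 to 25610860. Features named are the pair, *CMT3a*, *CMT3b*, the 5 of highest mean TPM among the 10 lowest identifiers of chromosome 9, the 5 others of highest mean share and, for each locus, the 5 of highest correlation. LOC_Os02g06640 was named after its values were seen. The loci, lists and tests were chosen with earlier results of these data known.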

Additional observations from a re-analysis of the deposited data

Results flagged for a closer look

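Several effects of *cmt3b* on the pair differed between cell types by the interaction term of edgeR's quasi-likelihood fit of all replicated groups. For LOC_Os09g01000, the log2 effect in egg minus that in meiocyte was -3.19 (SE 0.10, edgeR adjusted p = 2.78e-37), and in zygote minus that in meiocyte -0.65 (SE 0.09, edgeR adjusted p = 3.74e-09). Its effect in zygote minus that in egg was 2.54 (SE 0.10, edgeR adjusted p = 3.65e-32). For LOC_Os09g00999, egg minus meiocyte was -0.87 (SE 0.09, edgeR adjusted p = 2.40e-13) and zygote minus egg was 1.02 (SE 0.09, edgeR adjusted p = 9.53e-16). In that fit the effects on LOC_Os09g01000 were 2.96 in meiocyte, 2.31 in zygote and -0.23 in egg, and those on LOC_Os09g00999 were 1.88, 2.03 and 1.01. The differences of -0.65 and -0.87 are under the 2-fold limit used for calls. Among all 29846 features, differences in the same directions passed the adjusted p at any size for 22.5% (egg minus meiocyte, lower), 21.7% (zygote minus meiocyte, lower) and 21.8% (zygote minus egg, higher).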

How the results depend on the processing

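Of 178 alternative fits of the fold changes of both loci, 177 left the call as it was and none turned a direction. The exception was LOC_Os09g00999 in *cmt3b* against WT egg under total-count scaling (0.87). Fold changes with a replicate block were 2.96 and 1.89 (*cmt3b* meiocyte) and -0.17 and 1.09 (*cmt3b* egg), and no call of the loci changed under the block in any comparison. In *cmt3b* meiocyte 2480 features were called higher and 1830 lower with the block, against 2485 and 1833. Libraries of the same number shared only that number, with correlations of their deviations from -0.0996 to 0.126. Interaction alternatives were added after seeing the data. The zygote minus egg difference of LOC_Os09g00999 fell under 2-fold with DESeq2's size factors (0.94) and without *cmt3b* zygote replicate 1, and ranged from 0.97 to 1.06 over libraries left out, and its zygote minus meiocyte difference had an edgeR adjusted p of 0.000142 under total count (0.33).

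Of 178 alternative counts of features called, 175 were within 1.5 times. Features called lower in *cmt3b* against WT egg were 1810 under TMM, 2911 under total count and 2916 under total count with the pair left out, and 12681 against 7088 were called higher in microspore without the filter. At a threshold of 1 TPM, the pair's removal added 12 (WT meiocyte), 67 (*cmt3b* sperm), 25 (WT egg), 15 (*cmt3b* egg), 185 (*cmt3a* egg), 5 (WT zygote) and 46 (*cmt3b* zygote) features. It added 84 in *cmt3b* meiocyte. In microspore and WT sperm it added 161 and 85, more than the 128 and 82 at a threshold of 10 TPM. With no filter on low TPM, the median shifts were 0.0073 (*cmt3a* egg) and 0.0049 (microspore), as features near 0 then enter the median. Leaving out LOC_Os09g01000 alone multiplied other TPM values by 1.00262 (WT meiocyte), 1.01805 (*cmt3b* meiocyte), 1.01849 (microspore), 1.01844 (WT sperm), 1.02851 (*cmt3b* sperm), 1.00776 (WT egg), 1.00515 (*cmt3b* egg), 1.07365 (*cmt3a* egg), 1.00219 (WT zygote) and 1.01123 (*cmt3b* zygote). Where leaving out a library left 1 in a group, that library was assumed to vary like the other group. Other limits are groups of 2 libraries and WT sperm with 1.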
